A study of Mus musculus with 2 samples.

Results

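AP-1 is a family of dimeric transcription factors built from FOS, JUN and ATF proteins, which pair through a leucine zipper and bind DNA through an adjoining basic region. FOS proteins need a JUN partner, whereas JUN proteins can also pair with each other, so the mix of subunits in a cell sets which dimers can form. Many of their genes are immediate-early genes, transcribed within minutes of a growth factor, cytokine or stress signal without new protein synthesis, and most of their messages are short-lived. The 10 genes described here were taken by symbol: Fos, Fosb, Fosl1, Fosl2, Jun, Junb, Jund, Egr1, Atf3, and Ier3. All 10 were found among the 24091 genes of the deposited table.

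The data comprised 2 RNA sequencing libraries of polyadenylated RNA from cells labelled as primary adipocytes, 1 from sham-irradiated C57BL/6 mice and 1 from C57BL/6 mice given pelvic irradiation, labelled as 7.5 Gy and 5 days without stating whether the dose was daily or total. In both groups, gonadal fat was taken 2 months later and digested with collagenase for 45 min, and the floating cells were kept in culture for 3 days, so both libraries describe cells after digestion and culture. Both sample titles also name PBS, whose role the labels do not state, and the number, age, and sex of the mice behind each library are not in the labels. Each group was a single library, so there was no replicate check, no test was made, and every difference below compares these libraries rather than the conditions.

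Values are in FPKM, a fragment count scaled for the length of the gene and the depth of the library, so levels can be compared between genes. Gene coordinates are those of the deposited table, in build mm10. A difference is the log2(FPKM + 0.1) of the irradiated library minus that of the sham-irradiated library. The depth recovered from the values was 30590000 fragments after sham treatment and 34992000 after irradiation. The interval beside a difference is the exact 95% Clopper-Pearson interval of the ratio of recovered fragments. It covers counting error only, since with 1 library per group the variation between mice or preparations could not be estimated. Copies made by PCR are not independent molecules, so the interval can be too narrow even for counting error. Among the 11253 genes that reached an FPKM of 1 in either library, called the genes kept, the median difference was 0.02, and 53.5% of them were higher in the irradiated library. Of the genes kept, 4.31% were higher in the irradiated library by at least 0.5 on the log2 scale (1.41-fold) and 1.44% were lower by that amount. By at least 1, 0.791% were higher and 0.373% lower. At this depth, counting error was small for many genes, and the interval lay above 0 for 23.8% of the genes kept and below 0 for 17.5%.

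The label of primary adipocytes was checked against marker genes. Adipoq, the adipocyte hormone adiponectin, had 5 fragments after sham treatment and 10 after irradiation, and only 3 of 12 mature adipocyte markers were among the genes kept, with Fabp4 the most abundant and the leptin gene Lep listed at 0 after sham treatment. Fabp4 was at an FPKM of 96.9 in both libraries, while Adipoq, a defining marker of mature adipocytes, was at 0.133 and 0.232, so the data go against a label of mature adipocytes. Of the 12 adipocyte markers, 11 were higher in the irradiated library, most of them from an FPKM under 1. Of the 3 kept, 2 were higher. Among all genes kept, 53.5% were higher, the share to set beside the counts of higher markers below. The 12 fibroblast and progenitor markers summed to an FPKM of 4632 after sham treatment and 3728 after irradiation, led by Col1a1, and 7 of them were lower in the latter. Of 12 macrophage markers, 10 were higher in the irradiated library, with sums of 621 and 662 in the sham-irradiated and irradiated libraries. Lyz2, the most abundant, was itself lower, at -0.11, while the list had a median difference of 0.33 and a highest value of 0.80. Of 8 mesothelial markers, 7 were higher, by 0.80 to 2.18, and 4 of the 8 were kept only through the irradiated library. The median of this list was 1.255, the largest of the marker lists, with 5 of 8 at 1 or more, beside 0.791% of all genes kept. However, Wt1, the most abundant, was at -0.13, and the sums were 34.5 and 49.5. All 7 smooth muscle and pericyte markers were higher, with sums of 923 and 1174, led by Acta2, and 6 of 8 endothelial markers were higher, with sums of 44.6 and 48.6, led by Cdh5. Neutrophil markers summed to 3.49 and 2.14, with S100a8 the most abundant and Ly6g listed at 0 in both libraries, and the 8 lymphocyte markers, led by Cd3g, summed to 2.85 and 1.55. The libraries are therefore bulk mixtures in which fewer cells of a type and less RNA per cell cannot be told apart. The part of these cell types in the results below was not tested.

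Fosl1, Egr1, Atf3, and Ier3 showed the largest differences of the 10 genes for which the counting interval lay above 0, while Junb and Fosl2, the most abundant subunits of the JUN and FOS families, differed little between the libraries. Over all 10 genes, the differences ran from -0.16 for Jund to 0.51 for Egr1, with a median of 0.235 against 0.02 for the genes kept. Of the 10 genes, 7 were higher in the irradiated library, as were 6 of the 9 that passed the filter, beside 53.5% of all genes kept. Egr1, 1 of the 10, was higher by at least 0.5, beside 4.31% of the genes kept, and 0 were lower by that amount, beside 1.44%. The interval lay above 0 for 5 genes, Fosl1, Jun, Egr1, Atf3, and Ier3, beside 23.8% of the genes kept. It lay below 0 for 1, Jund, beside 17.5%, so the count below 0 was no higher than the general share. The filter kept 9 of the 10 genes, each at an FPKM above 1 in both libraries, and left out Fosb. Most macrophage, mesothelial, smooth muscle, endothelial, and adipocyte markers were also higher in the irradiated library, with the counts and values given above, and their part in these differences was not tested.

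**Figure D1:**
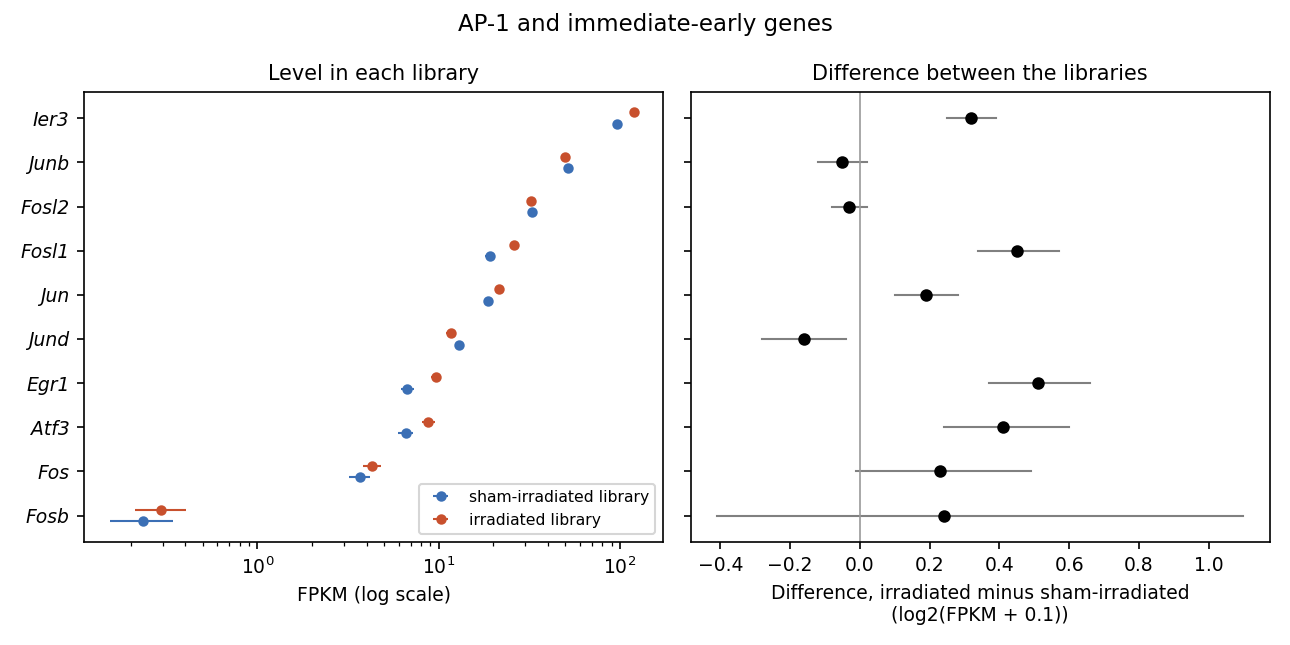
Levels of the 10 genes in the 2 libraries, in FPKM on a log axis with exact 95% Poisson counting intervals (left), and the difference between the libraries on the log2(FPKM + 0.1) scale with the 95% counting interval of the fragment ratio (right). The order of the genes by level is the same in both libraries, and the differences lie between -0.16 for Jund and 0.51 for Egr1.

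The order of the levels was the same in both libraries. Ier3 was the most abundant of the 10 genes, followed by Junb, Fosl2, Fosl1, Jun, Jund, Egr1, Atf3, Fos, and Fosb. In the sham-irradiated library, the exact Poisson intervals of neighbours overlapped for Fosl1, at 17.9 to 20.3 FPKM, and Jun, at 17.9 to 19.7. In the irradiated library they no longer overlapped, with Fosl1 at 24.8 to 27.4 FPKM and Jun at 20.6 to 22.3. The intervals of Egr1 and Atf3 overlapped in both libraries, and those of all other neighbours did not. Among the 24091 listed genes, Ier3 ranked 517 by FPKM after sham treatment and 415 after irradiation, and Fos ranked 8260 and 7883.

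The FOS family differed by member. Fosl1, which encodes FRA-1, a FOS protein without the strong activation domain of FOS, lies on chromosome 19 from 5447698 to 5455938. Its FPKM was 19.1 after sham treatment and 26.1 after irradiation, on 992 and 1552 fragments. The difference was 0.45, with an interval of 0.34 to 0.57, at percentile 94.5 of the genes kept. Fosl1 overlaps Ccdc85b on the opposite strand, which had an FPKM of 3.13 and 3.31. The kit was stranded, but the sources used here do not say whether the counting used strand.

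Fosl2 encodes FRA-2, the other member of this kind, and lies on chromosome 5 from 32136472 to 32157839. It was the most abundant FOS gene, with an FPKM of 32.8 after sham treatment and 32.1 after irradiation. The difference was -0.03 with an interval of -0.08 to 0.02, so any difference between these libraries was small next to the 0.45 of Fosl1.

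Fos itself, on chromosome 12 from 85473901 to 85477270, encodes the classic partner of JUN, whose message decays quickly after a stimulus. Its FPKM was 3.66 and 4.31 in the sham-irradiated and irradiated libraries, on 234 and 315 fragments. The difference of 0.23 had an interval of -0.01 to 0.49, which includes 0. Fosb, on chromosome 7 from 19302696 to 19310045, encodes FOSB and its shortened form ΔFOSB, which the gene-level values do not separate. It was the lowest of the 10 genes, with an FPKM of 0.234 and 0.295 on 27 and 39 fragments. Its difference of 0.24 had an interval of -0.41 to 1.10, and no difference was detectable for it at this depth.

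Summed over its 4 genes, the FOS family had an FPKM of 55.8 after sham treatment and 62.8 after irradiation. Fosl2 supplied 58.8% of this sum after sham treatment and 51.2% after irradiation, and Fosl1 supplied 34.2% and 41.5%. Fos contributed 6.56% and 6.86%. FRA-1 and FRA-2 messages therefore made up most of the FOS-family RNA in both libraries. The FPKM ratio of Fosl1 to Fosl2 was 0.581 after sham treatment and 0.812 after irradiation, and the difference between their differences was 0.48, with an exact counting interval of 0.36 to 0.61. This pair and the Jun and Jund pair were picked with their values known.

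The JUN family was nearly equal in sum, with an FPKM of 83.3 after sham treatment and 82.8 after irradiation, while its members differed in direction. Jun, on chromosome 4 from 95049036 to 95052222, encodes the main partner of FOS proteins and the target of the JNK kinases. Its FPKM was 18.8 and 21.5, on 1832 and 2392 fragments, a difference of 0.19 with an interval of 0.10 to 0.28. Jund, on chromosome 8 from 70697739 to 70700616, is the JUN gene that is also transcribed in resting cells. It was lower in the irradiated library, with an FPKM of 13.0 after sham treatment and 11.6 after irradiation, a difference of -0.16 with an interval of -0.28 to -0.04. Junb, on chromosome 8 from 84976909 to 84978748, encodes a JUN protein that can weaken the activity of JUN. Its FPKM was 51.5 and 49.8, a difference of -0.05 with an interval of -0.12 to 0.02.

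In the deposited table, Jun lies inside a listed span of Eno1b on the opposite strand, at an FPKM of 0.520 and 0.455, and Junb and Jund lie inside one of Mir1957a, listed at 0 in both libraries. The listed spans run from 48045335 to 150248873 on chromosome 4 for Eno1b and from 24484967 to 94782876 on chromosome 8 for Mir1957a. They are far too long for a single gene, so these listed overlaps may not be real ones. Junb supplied 61.9% of the JUN-family FPKM after sham treatment and 60.1% after irradiation, Jun 22.6% and 25.9%, and Jund 15.6% and 14.0%. The FPKM ratio of Jun to Jund was 1.45 after sham treatment and 1.85 after irradiation, and their differences lay 0.35 apart, with a counting interval of 0.20 to 0.50. In the GENCODE M21 annotation, the longest transcripts of Jun, Junb, and Jund each had 1 exon, in contrast to 4 exons for each of Fos, Fosb, Fosl1, and Fosl2.

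Egr1 showed the largest difference of the 10 genes. It encodes a zinc finger factor outside AP-1 that is induced by the same ERK and serum response factor signals as Fos. The gene lies on chromosome 18 from 34861207 to 34864956. Its FPKM was 6.72 after sham treatment and 9.61 after irradiation, on 631 and 1033 fragments. The difference was 0.51, with an interval of 0.37 to 0.66, at percentile 95.8 of the genes kept. It was just past the threshold of 0.5, and the closing section gives the settings under which it fell short.

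Atf3 encodes a bZIP factor that pairs with JUN proteins and is induced by many stresses, including DNA damage. On chromosome 1 from 191170297 to 191218039, its FPKM was 6.58 and 8.78 in the sham-irradiated and irradiated libraries, a difference of 0.41 with an interval of 0.24 to 0.60. Ier3, on chromosome 17 from 35821713 to 35822911, encodes IEX-1, a small protein that modulates cell survival and ERK signalling and does not bind DNA as part of AP-1. Its FPKM was 96.2 after sham treatment and 120.2 after irradiation, on 3203 and 4575 fragments. This was a difference of 0.32 with an interval of 0.25 to 0.39.

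The lists of related genes that follow were chosen from general knowledge with earlier results of these data known, so their counts are descriptions. In each list, the genes named are the most abundant gene and those with the largest differences in each direction. Any further gene was picked with its values already known. Differences of genes near an FPKM of 0.1 are understated by the added 0.1.

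The other immediate-early genes lay mostly on the same side as Egr1 and Fosl1. Of 35 listed, 30 were higher in the irradiated library, as were 26 of the 31 kept, beside 53.5% of all genes kept. Among the 31 kept, the median difference was 0.22, 7 reached 0.5, and 0 reached -0.5, against 4.31% and 1.44% of all genes kept. The interval lay above 0 for 20 of the 31 and below 0 for 2, beside 23.8% and 17.5%. Egr3, a relative of Egr1, had an FPKM of 1.05 and 1.93 in the sham-irradiated and irradiated libraries, a difference of 0.82 with an interval of 0.57 to 1.20. Egr2 had 6.86 and 11.2, a difference of 0.70. EGR2 is also a factor of activated macrophages, whose markers were higher in 10 of 12 cases, and their part in this difference was not tested.

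Nr4a1 and Nr4a2 encode orphan nuclear receptors induced by the same signals, and each had a difference of 0.77, on FPKM of 1.33 and 2.35 for Nr4a1 and 0.701 and 1.27 for Nr4a2. Nr4a2 was kept only through the irradiated library. Cyr61 encodes the matricellular protein CCN1 and was the most abundant gene of the list, with an FPKM of 229.03 after sham treatment and 326.2 after irradiation. Its difference was 0.51, with an interval of 0.48 to 0.54. Btg2, an antiproliferative gene that p53 also induces, had a difference of 0.65, and Tiparp, a target of the aryl hydrocarbon receptor, had 0.54.

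Some genes of this list were level or lower. Myc, the growth regulator, had an FPKM of 30.6 and 31.7 and a difference of 0.05 with an interval of -0.03 to 0.13. Zfp36 encodes tristetraprolin, which speeds the decay of AU-rich messages, and had a difference of 0.07 with an interval of -0.05 to 0.19. Its relative Zfp36l1 had the lowest difference of the list, -0.25, with an interval of -0.31 to -0.19 and an FPKM of 43.9 after sham treatment and 36.9 after irradiation, followed by the kinase gene Pim1 at -0.12, with an interval of -0.24 to 0.01. Klf6 and Klf4, Krüppel-like factors, were higher, with differences of 0.25 and 0.45. The list therefore held higher, lower, and level genes, as the 10 genes themselves did.

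Genes that could act upstream had a median close to that of all genes kept. The list held 27 genes for ERK, JNK, and p38 kinases, the kinases that activate them, RSK and MSK kinases that ERK and p38 activate, and the factors SRF, ELK, MRTF, and CREB1 that drive immediate-early promoters. Of the 26 kept, the median difference was 0.025 and 0 passed 0.5 in either direction, beside 4.31% and 1.44% of all genes kept. The interval lay above 0 for 5 of the 26 and below 0 for 3, beside 23.8% and 17.5%. Map2k1, which encodes MEK1 and was the most abundant, had an FPKM of 57.98 and 59.2. Mapk3, an ERK gene, had a difference of 0.02, Mapk8, a JNK gene, had an FPKM of 3.24 in both libraries, and Srf had a difference of 0.06. The extremes were Map3k1 at 0.28, with an interval of 0.14 to 0.43, Map2k3 at 0.26, with 0.18 to 0.34, and Map2k6 and Rps6ka3 at -0.13, with -0.39 to 0.12 and -0.18 to -0.08. RNA levels of kinases do not report their activity, which was not measured.

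**Figure D2:**
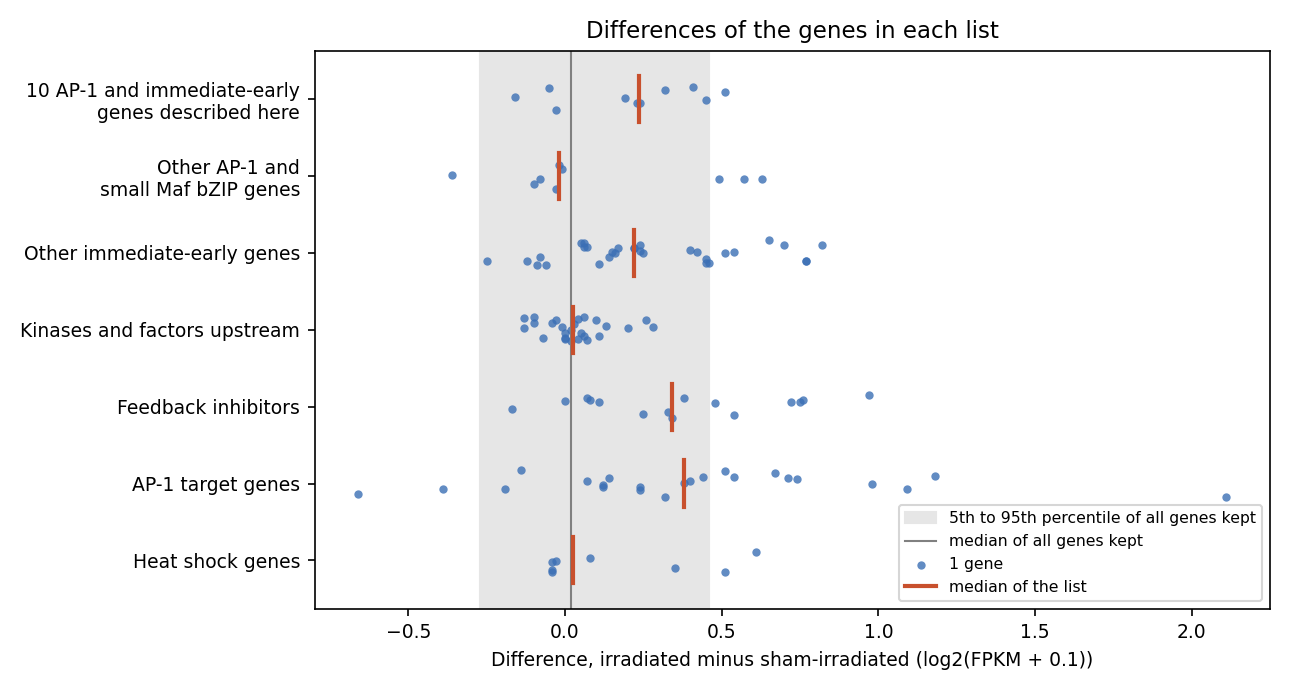
Difference of each gene between the irradiated and the sham-irradiated library on the log2(FPKM + 0.1) scale, for the 10 genes described and for the kept genes of 6 related lists, with list medians as vertical bars and the 5th to 95th percentile of all genes kept (-0.27 to 0.46) shaded. The kinases and factors upstream lie close to 0, with a median of 0.025, while the medians of the feedback inhibitors and AP-1 target genes are 0.34 and 0.38.

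Feedback inhibitors of the same pathways were mostly higher in the irradiated library. Dual-specificity phosphatases remove phosphate from MAP kinases, Sprouty and Spred proteins act on the RAS to ERK cascade, and NAB proteins repress EGR factors. Of 16 listed, 14 were higher, as were 13 of the 15 kept, beside 53.5% of all genes kept. Among the 15 kept, the median difference was 0.34. Of those 15, 1 passed only through the irradiated library, 5 differed upward by 0.5 or more and 0 downward, beside 4.31% and 1.44% of all genes kept. The interval lay above 0 for 11 and below 0 for 1, Nab1, beside 23.8% and 17.5%. Dusp5, whose product acts on nuclear ERK, had an FPKM of 4.07 after sham treatment and 8.07 after irradiation, on 143 and 325 fragments. Its difference was 0.97, with an interval of 0.70 to 1.28.

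Dusp14 had a difference of 0.76 on 61 and 122 fragments. Dusp4 and Dusp6, both ERK phosphatases, had FPKM of 11.9 and 20.01 for Dusp4 and 13.4 and 19.6 for Dusp6, differences of 0.75 and 0.54. Spry4 and Spry2 had differences of 0.72 and 0.38. Dusp1, a phosphatase that acts mainly on p38 and JNK, had an FPKM of 9.96 and 12.6, a difference of 0.34 with an interval of 0.19 to 0.50. Nab1, the most abundant of the list, was lower in the irradiated library, with an FPKM of 27.0 after sham treatment and 24.0 after irradiation, a difference of -0.17.

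Genes known as AP-1 targets were mostly higher in the irradiated library, with a few lower. Of 24 listed, 20 were higher, as were 19 of the 23 kept, beside 53.5% of all genes kept. Among the 23 kept, the median difference was 0.38. Of the 23, 9 were higher by at least 0.5 and 1 was lower, and by at least 1, 3 were higher and 0 lower. Of all genes kept, 4.31% and 1.44% passed the first threshold and 0.791% and 0.373% the second. The interval lay above 0 for 18 and below 0 for 4, beside 23.8% and 17.5%. Il11, a cytokine gene with AP-1 sites in its promoter, had an FPKM of 4.19 after sham treatment and 18.4 after irradiation, a difference of 2.11 with an interval of 1.94 to 2.34. Il11 stood out in earlier results of these data, so its place in the list is no support. Ereg, which encodes the EGF receptor ligand epiregulin, had 6.53 and 14.9, a difference of 1.18, and Hbegf, another such ligand, had 2.81 and 5.64, a difference of 0.98.

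Ptgs2 encodes the inducible cyclooxygenase COX-2 and had an FPKM of 37.7 after sham treatment and 80.3 after irradiation, a difference of 1.09 with an interval of 1.04 to 1.14. Ccnd1, the cyclin D1 gene, had a difference of 0.74, Lif, a cytokine of the IL-6 family, 0.67, and Mmp3, stromelysin 1, 0.54. Spp1, osteopontin, had a difference of 0.71, and this gene is abundant in macrophages as well. Timp1, a metalloproteinase inhibitor, was the most abundant of the list, with 1770 after sham treatment and 2091 after irradiation, a difference of 0.24.

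In the other direction, Mmp9, gelatinase B, had an FPKM of 62.6 after sham treatment and 39.6 after irradiation, a difference of -0.66 with an interval of -0.72 to -0.61. Cxcl1, Il6, and Ccl2, inflammatory genes that NF-κB also drives, had differences of -0.39, -0.19, and -0.14. The interval lay below 0 for each of these 4 genes. The target list thus held genes on both sides.

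The remaining bZIP genes were mixed in direction. Of 12 listed, 6 were higher in the irradiated library, as were 3 of the 9 kept, beside 53.5% of all genes kept. Among the 9 kept, the median difference was -0.02, 2 reached 0.5, and 0 reached -0.5, beside 4.31% and 1.44% of all genes kept. Of the 9, 3 had an interval above 0 and 0 had one below 0, beside 23.8% and 17.5%. Over all 12 the median was 0.065, so its sign turned with the filter. The small Maf gene Maff had an FPKM of 10.4 after sham treatment and 15.5 after irradiation, a difference of 0.57 with an interval of 0.45 to 0.70, and Mafk had a difference of 0.49, whereas Mafg had -0.02. Maf, the most abundant, had -0.01, and Jdp2, which encodes a JUN dimerization partner that represses AP-1, had -0.10 with an interval of -0.25 to 0.05. Batf had -0.36 on 39 and 34 fragments, with an interval of -1.10 to 0.31 that includes 0.

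Since enzymatic digestion of tissue is known to induce immediate-early and heat shock genes together, 8 heat shock genes were examined in the same libraries. Their median difference was 0.025, with 4 higher and 4 lower, where 53.5% of all genes kept were higher. Hspb1 and Hspa1a, 2 of them, reached 0.5, beside 4.31% of all genes kept. Of the 8, 3 had an interval above 0 and 2 had one below 0, beside 23.8% and 17.5%. The median was -0.03 over those with an FPKM of at least 5. Hspb1 had an FPKM of 21.5 after sham treatment and 32.8 after irradiation, a difference of 0.61, and Hspa1a had 1.35 and 1.97, a difference of 0.51. Hspa1a has a near-identical copy, Hspa1b, at 8.47 and 10.8, a difference of 0.35 with an interval of 0.22 to 0.49, and the values of both are uncertain. Hspa8, the most abundant, had a difference of -0.04, as did Hspe1. Whether digestion or culture contributed to the levels of Fos, Jun, Egr1, or Atf3 was not tested.

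Promoter sequences were read for the genes that the values describe, since AP-1 and ATF factors are known to act on the promoters of their own family. The RefSeq table of assembly GRCm38.p6 held a promoter for 8 of the 10 genes, and Fosl1 and Egr1 had none in it. In the 250 bases before the transcription start, 6 motifs were searched, on both strands except for the last. They were TGANTCA, the AP-1 site, TGACNTCA, its form with 1 more base, TGACG, the core of the cAMP response element, GCGNGGGCG, the EGR site, the serum response element by its name, and TATAAA. A full cAMP response element would match both TGACNTCA and TGACG. The core TGACG was found in 4 of 8 windows, those of Fos, Fosb, Junb, and Atf3, and in 17.8% of all 32851 promoter windows of the same length. TGACNTCA was found in 1 of 8, that of Jun, and in 7.49% of all windows, and GCGNGGGCG in 2 of 8, those of Fosb and Fosl2, and in 4.70%. TATAAA was found in 1 of 8, that of Fos, and in 7.59% of all windows. TGANTCA and the serum response element had 0 matches in the 8 windows, against 6.75% and 1.47% of all windows, which says only that these letters are not in this stretch. These counts are descriptions of sequence, and no binding was measured.

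The 5 promoters with a match to TGACG or TGACNTCA are printed to show where these letters stand. They belong to genes whose differences ran from -0.05 for Junb to 0.41 for Atf3, and the interval of the first included 0 while that of the second did not. Each sequence is the 250 bases before the RefSeq start on the strand of the gene, 5′ to 3′, from GRCm38.p6, with the matched motifs in capitals. In Fos, on the plus strand at chr12:85473640-85473889, the matches to TGACG end 125 and 62 bases before the start and TATAAA ends 28 bases before it. In Fosb, on the minus strand at chr7:19310046-19310295, TGACG ends 56 bases and the EGR match GCGGGGGCG 42 bases before the start. In Jun, on the minus strand at chr4:95052223-95052472, the octamer TGACATCA ends 38 bases before the start. In Junb, on the minus strand at chr8:84978749-84978998, TGACG ends 102 bases before it, and in Atf3, on the minus strand at chr1:191183334-191183583, the reverse form CGTCA ends 3 bases before it, at a RefSeq start that lies inside the listed gene.
Fos: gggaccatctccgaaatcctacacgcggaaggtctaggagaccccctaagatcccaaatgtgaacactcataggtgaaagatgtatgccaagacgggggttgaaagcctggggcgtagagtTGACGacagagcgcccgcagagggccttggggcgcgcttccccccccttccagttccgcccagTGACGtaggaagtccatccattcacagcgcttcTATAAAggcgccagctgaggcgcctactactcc
Fosb: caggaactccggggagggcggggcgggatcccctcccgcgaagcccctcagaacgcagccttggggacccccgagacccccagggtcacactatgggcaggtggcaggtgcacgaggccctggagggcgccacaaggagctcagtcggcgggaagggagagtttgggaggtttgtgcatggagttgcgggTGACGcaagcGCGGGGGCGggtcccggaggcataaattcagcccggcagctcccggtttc
Jun: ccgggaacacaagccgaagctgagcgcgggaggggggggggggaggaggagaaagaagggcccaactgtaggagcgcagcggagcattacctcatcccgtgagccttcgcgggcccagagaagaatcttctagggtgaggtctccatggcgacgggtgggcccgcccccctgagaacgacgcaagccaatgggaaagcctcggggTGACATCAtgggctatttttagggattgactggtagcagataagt
Junb: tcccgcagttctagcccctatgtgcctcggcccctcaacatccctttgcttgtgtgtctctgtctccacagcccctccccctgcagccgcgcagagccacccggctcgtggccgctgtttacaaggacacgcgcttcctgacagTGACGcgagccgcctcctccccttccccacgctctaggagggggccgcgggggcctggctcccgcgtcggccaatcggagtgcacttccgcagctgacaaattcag
Atf3: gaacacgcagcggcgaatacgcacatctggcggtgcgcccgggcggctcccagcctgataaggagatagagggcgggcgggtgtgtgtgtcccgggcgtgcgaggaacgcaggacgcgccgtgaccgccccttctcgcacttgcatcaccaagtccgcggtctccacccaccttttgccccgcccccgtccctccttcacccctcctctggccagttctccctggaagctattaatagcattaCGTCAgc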

How the data were processed

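RNA from 1 sham-irradiated and 1 irradiated culture was sequenced, and samples were grouped by the treatment in their labels. The deposited values are log2(FPKM + 0.1) with 2 decimals, as the authors made them, beside gene lengths. The genome build was mm10, per the submitters' processing notes, and the sources used here do not name the aligner or counter. FPKM was recovered by undoing the logarithm, and the depth as the total that made FPKM multiplied by gene length closest to whole fragments. Of genes with few fragments, 2208 of 2208 (sham) and 2081 of 2081 (irradiated) came out whole, to a tolerance of 0.12. The recovery was tested on simulated data. Fragments of abundant genes are approximate because of the rounding.

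Genes that reached an FPKM of 1 in either library entered the counts. No test was made and no p-value computed, with 1 library per group. The 10 genes and all lists were chosen with earlier results of these data known. From each list, the gene of highest mean FPKM and the 2 kept genes with the largest difference in each direction were named, except for items not reported here. Alternatives were other pseudocounts, filters, scalings, and thresholds. Coordinates of 9 of the 10 genes shared a start or end with RefSeq (GRCm38.p6). Python 3.11.15, pandas 2.3.3, and SciPy 1.17.1 were used.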

Additional observations from a re-analysis of the deposited data

How the results depend on the processing

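No paired analysis was possible because each group had 1 library, and for the same reason no replicate could be left out. The median difference of the 10 genes, 0.235, ran from 0.185 with log2(FPKM + 1) to 0.278 with no pseudocount under the alternatives. The count of these genes higher by at least 0.5, which rested on Egr1 at 0.51, was 0 with log2(FPKM + 1), after centring on the median difference of 0.02, after scaling without the 100 most abundant genes, and with a threshold of 1. The share of all genes kept higher and lower by at least 0.5 was 2.34% and 0.844% with log2(FPKM + 1), 3.93% and 1.57% with centring, and 3.93% and 1.53% with scaling. With a threshold of 1, the counts of higher genes were 0 for the other bZIP, other immediate-early, feedback inhibitor, and heat shock genes and 3 for AP-1 targets, and 0 AP-1 targets were lower. With an FPKM of at least 5, the counts were 4 for other immediate-early genes and 3 for feedback inhibitors, because fewer genes were kept. No share of all genes is given for this filter, so counts under it cannot be set against a general share. The heat shock count was 1 with log2(FPKM + 1), with centring, with scaling, and with an FPKM of at least 5. With log2(FPKM + 1), the differences of 4 of 66 genes examined singly, Egr3, Il11, Nr4a2, and Hbegf, left their intervals. Of these 66 genes, among those whose interval excluded 0, 0 changed sign under the alternatives run, and 53 of the 66 could be examined with an FPKM of at least 5. The median turned to 0.065 without a filter for the other bZIP genes and to -0.03 with an FPKM of at least 5 for heat shock genes. Depth limits Fosb most, with 27 and 39 fragments.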
